A study of Mus musculus with 60 samples.

Results

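Genes that mark the cells of blood vessels were followed through the striatal arrays: Cldn5, Flt1, Kdr, Tek, Pecam1, Cdh5, Vwf, Esam and Abcb1a, which are markers of endothelium, and Pdgfrb, which marks pericytes and other mural cells. They were taken by symbol from the platform's probe table, which holds 19057 named genes, and they are measured by 16 of the 45281 probes on the array: 5 genes have 1 probe and 5 have several. Adult male C57BL/6J mice, 8 to 10 weeks old, had been injected once with 20 mg/kg ketamine, 15 mg/kg memantine, 5 mg/kg phencyclidine (PCP) or saline, or had been left naive, and the striatum was collected at 1, 2, 4 or 8 h. The 3 compounds block the NMDA receptor, a glutamate-gated channel, and the doses differ, so their values stand side by side and no drug was tested against another. Each of the 20 groups has 3 arrays, each hybridized with RNA pooled from 2 mice, which makes 60 arrays on 10 BeadChips of 6. The p-values therefore measure the spread between pools.

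Brain capillaries are lined by endothelial cells that are sealed to each other by tight and adherens junctions and carry efflux pumps, and together these form the blood-brain barrier. The endothelium responds to vascular endothelial growth factor (VEGF) and to angiopoietins through receptor tyrosine kinases, and it recruits pericytes by releasing platelet-derived growth factor, whose receptor on pericytes is the product of Pdgfrb. In whole striatum, fewer vascular cells and less RNA per vascular cell cannot be told apart.

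RefSeq promoter windows of 300 bases around the transcription start (build GRCm38.p6) were at hand for 5 of the 10 genes. The windows of Tek, whose signal was lower in a drug comparison below, of Flt1, the brightest receptor probe, and of Cldn5, the brightest of the 16 probes, are printed 5′ to 3′ on the gene's own strand. Capitals mark GGAA, the core that ETS factors bind, and its reverse complement TTCC. Tek lies at chr4:94739039-94739338, plus strand, Flt1 at chr5:147725962-147726261, minus strand, and Cldn5 at chr16:18776597-18776896, plus strand.
Tek: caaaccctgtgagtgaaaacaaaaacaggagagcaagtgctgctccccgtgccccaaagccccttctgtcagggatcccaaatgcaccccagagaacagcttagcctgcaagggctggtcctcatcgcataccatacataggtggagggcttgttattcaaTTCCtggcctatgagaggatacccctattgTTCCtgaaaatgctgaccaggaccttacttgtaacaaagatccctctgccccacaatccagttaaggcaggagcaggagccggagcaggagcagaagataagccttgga
Flt1: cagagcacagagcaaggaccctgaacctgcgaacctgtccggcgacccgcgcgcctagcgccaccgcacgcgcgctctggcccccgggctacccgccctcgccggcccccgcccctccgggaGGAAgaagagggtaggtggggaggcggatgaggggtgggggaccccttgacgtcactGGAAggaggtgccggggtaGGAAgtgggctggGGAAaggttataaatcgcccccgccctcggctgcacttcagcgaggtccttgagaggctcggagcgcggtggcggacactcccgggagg
Cldn5: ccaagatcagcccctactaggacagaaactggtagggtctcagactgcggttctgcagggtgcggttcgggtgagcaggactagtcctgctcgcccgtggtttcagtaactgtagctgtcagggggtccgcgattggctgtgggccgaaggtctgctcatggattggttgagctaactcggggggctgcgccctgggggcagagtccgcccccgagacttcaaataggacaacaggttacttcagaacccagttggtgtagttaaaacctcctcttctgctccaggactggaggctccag
Searched on both strands, GGAA occurred 2 times in the window of Tek, 4 times in that of Flt1 and 0 times in that of Cldn5, and 5 times in each of the windows of Kdr and Abcb1a that are not shown. It is a common motif, present in 96% of the 32851 promoter windows of this length with a median of 3 copies, and its absence from the Cldn5 window says only that these letters are not there. The motif TATAAA was found in the Flt1 window alone among these 5, on the strand of the gene, and in 13.6% of all windows.

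The signals are probe intensities, background-corrected, quantile-normalized and placed on the log2 scale. A probe was kept where its signal exceeded the 25th percentile of its array in 3 or more arrays, and all 16 probes passed. Cldn5, the main tight junction protein of brain endothelium, lay above that percentile on 60 of 60 arrays, with log2 values from 10.33 to 12.07 and a median of 11.27. Esam, a cell adhesion molecule of endothelial junctions, ranged from 9.92 to 10.99, and probe 1 of Flt1, VEGF receptor 1, from 10.58 to 11.43. These 3 probes lay between the 90.8th and 94.8th percentile of all probes. Tek, the angiopoietin receptor, ranged from 8.61 to 9.77, and Pdgfrb from 7.10 to 9.28, both above the 25th percentile on every array. The dimmest probes were probe 2 of Kdr, which codes for VEGF receptor 2 and passed on 4 arrays, and probe 3 of the adhesion molecule Pecam1, which passed on 3. Abcb1a, the drug efflux pump P-glycoprotein, was above that percentile on 29 arrays and probe 2 of Vwf, von Willebrand factor, on 34, so changes of these 4 probes rest on signal close to the floor. The labelled tissue was checked on its projection neurons, and Drd1, Drd2, Ppp1r1b, Penk, Tac1, Pdyn, Rgs9 and Pde10a lay between the 87.9th and 99.6th percentile.

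Of the arrays as a whole, the median intensity before normalization ran from 166.9 to 646.1. The brightest array was saline 4 h replicate 3, and the next was saline 1 h replicate 3 (438.8). The arrays least correlated with the rest were saline 4 h replicate 3 (mean r = 0.935), saline 4 h replicate 1 (0.940) and saline 1 h replicate 3 (0.944), so the saline controls of 4 h hold 2 arrays that stand apart. Saline was hybridized at array positions E and F only, ketamine at A and B and memantine at B and C, so position on the BeadChip cannot be told apart from these treatments. BeadChips hold arrays of several groups. A BeadChip term passed the adjusted threshold for 7.91% of the 44236 probes tested and for 0 of the 16 vascular probes, of which 6 had an unadjusted p under 0.05 (lowest adjusted p = 0.056, probe 1 of Cdh5, the VE-cadherin gene). Among all probes tested, 23.9% had an unadjusted p under 0.05 for that term.

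Over the whole time course no vascular probe passed against saline for any of the 3 drugs. Averaged over the 4 times, the differences of the 16 probes from saline ran from -0.34 to 0.06 (log2) with ketamine, from -0.23 to 0.11 with memantine and from -0.22 to 0.12 with PCP. By the brightest probe of each gene, 2 of 10 genes were higher and 8 lower with ketamine (median -0.05), 5 and 5 with memantine (median -0.01) and 3 and 7 with PCP (median -0.05), beside a median of 0.01, 0.00 and 0.01 over all probes tested. In the limma fit, 0 of the 16 probes passed for ketamine, memantine or PCP, and 0 had an unadjusted p under 0.05, against a background of 0.0181%, 0.0543% and 0% of all probes called. The F-test over the 3 drugs together also called 0 of 16 (0.0158% of all probes), again with 0 at an unadjusted p under 0.05. For ketamine, memantine and PCP 9.46%, 9.40% and 6.98% of all probes had an unadjusted p under 0.05. In the F-test 6.68% did. The 95% interval of the Cldn5 average ran from -0.32 to 0.20 with ketamine, from -0.44 to 0.07 with memantine and from -0.32 to 0.19 with PCP. That of Flt1 probe 1, the tightest of these genes, ran from -0.22 to 0.11, from -0.13 to 0.20 and from -0.21 to 0.13.

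At single times, of the 192 values (16 probes, 3 drugs, 4 times), 175 were under 0.5 in absolute log2 size, 1 reached 1, 13 had an unadjusted p under 0.05 and 2 passed the adjusted threshold. Both of these were lower signals at 4 h after memantine, in Pdgfrb and Tek. In the remaining 11 drug comparisons 0 of 16 probes passed, and the count of vascular probes with an unadjusted p under 0.05 was between 0 and 3. The share of all probes with such a p was between 4.24% and 10.8% in these 11. At 4 h after memantine it was 15.2%, where 3 of the 16 vascular probes had it. The share of all probes called was 0% at 1 and 8 h, 0.00452% at 2 h and 0.0678% at 4 h for ketamine, 0% at 1 and 8 h and 0.00226% at 2 h for memantine, and 0.00226% at 1 h, 0% at 2 and 8 h and 0.0226% at 4 h for PCP.

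**Figure D1:**
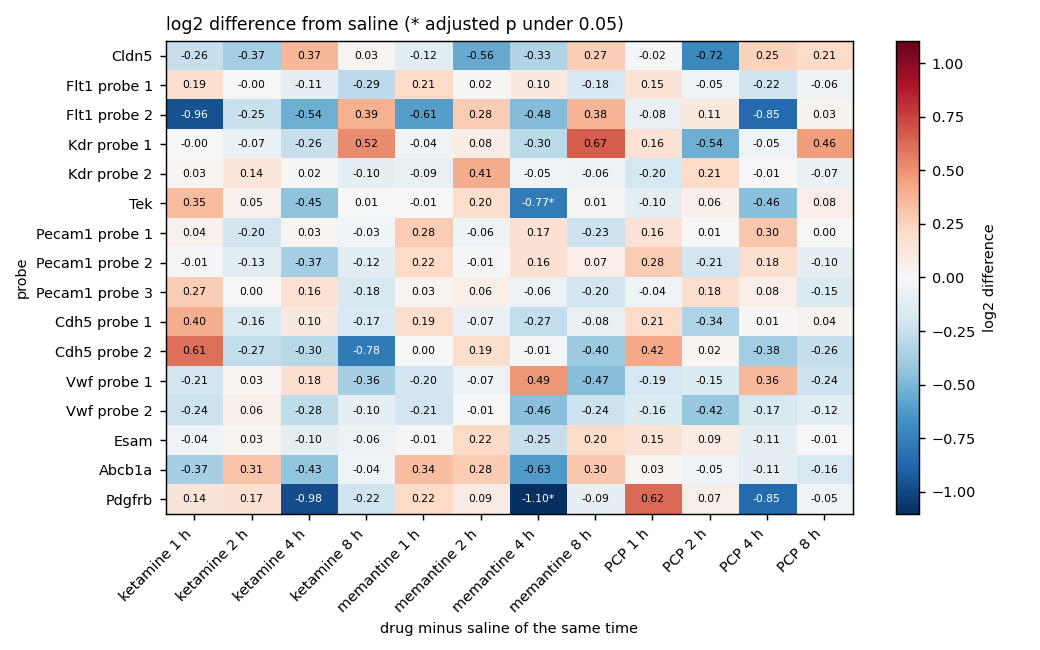
Log2 difference from saline of the same time for the 16 vascular probes (rows) in the 12 drug and time comparisons (columns), with the value in each cell and the colour from blue (lower) to red (higher); asterisks mark adjusted p under 0.05. The cells with an asterisk are Tek (-0.77) and Pdgfrb (-1.10) at 4 h after memantine, and Pdgfrb is also at -0.98 and -0.85 at 4 h after ketamine and PCP, which share the same saline arrays.

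Pdgfrb, the receptor through which pericytes are recruited, gave the largest difference. Its log2 signal at 4 h after memantine was 7.61, 7.86 and 7.83 on replicates 1 to 3. In saline at 4 h it was 9.05, 8.27 and 9.28, and in naive mice at 4 h 8.10, 8.27 and 8.42. The memantine arrays lay below every saline array and every naive array of that time. The share of all probes that separate in this way was not counted. Saline replicates 1 and 3 lay above all other arrays of the study, whose highest value was 8.52 (PCP at 2 h). The difference from saline was -1.10 (SE 0.25, 95% interval -1.61 to -0.60), or 0.465-fold, with adjusted p = 0.0275. At this time 0.714% of all probes were called and 0.31% were called lower.

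Ketamine and PCP were compared with the same 3 saline arrays. At 4 h the Pdgfrb signal after ketamine was 7.85, 8.13 and 7.69 and after PCP 8.26, 8.25 and 7.54, again below each saline array. The differences were -0.98 (SE 0.25, adjusted p = 0.133) and -0.85 (SE 0.25, adjusted p = 0.154), and neither passed. Against naive mice of 4 h they were -0.37 and -0.24. Without the 3 saline arrays that stand apart, which left only saline replicate 2 at 4 h, they were -0.38 and -0.25. On BeadChip 10, where a ketamine and a saline array of 4 h lay together, the difference was -1.44, and on BeadChip 9, with PCP and saline, it was -1.51, and both pairs hold 1 of the saline arrays that stand apart. No BeadChip held memantine and saline of 4 h together. Against naive mice of 4 h, saline was higher by 0.61 (SE 0.25, adjusted p = 0.306).

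Tek codes for the receptor that keeps endothelium quiescent when bound by angiopoietin. Its log2 signal at 4 h after memantine was 8.71, 8.66 and 8.70, against 9.77, 9.02 and 9.61 in saline and 9.02, 9.36 and 9.20 in naive mice. The 3 memantine arrays had an SD of 0.02 and lay below every saline and naive array of that time. For this separation, too, the share of all probes was not counted. The difference from saline was -0.77 (SE 0.19, 95% interval -1.15 to -0.39), or 0.586-fold, with adjusted p = 0.037. After ketamine at 4 h Tek was 9.02, 9.01 and 9.02 (difference -0.45, SE 0.19, adjusted p = 0.386), and after PCP 9.21, 9.18 and 8.61 (difference -0.46, SE 0.19, adjusted p = 0.334). With array position as a block, which could be fitted for PCP, the Tek difference at 4 h turned to 0.27 (adjusted p = 0.833) and that of Pdgfrb was -1.44 (adjusted p = 0.247).

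**Figure D2:**
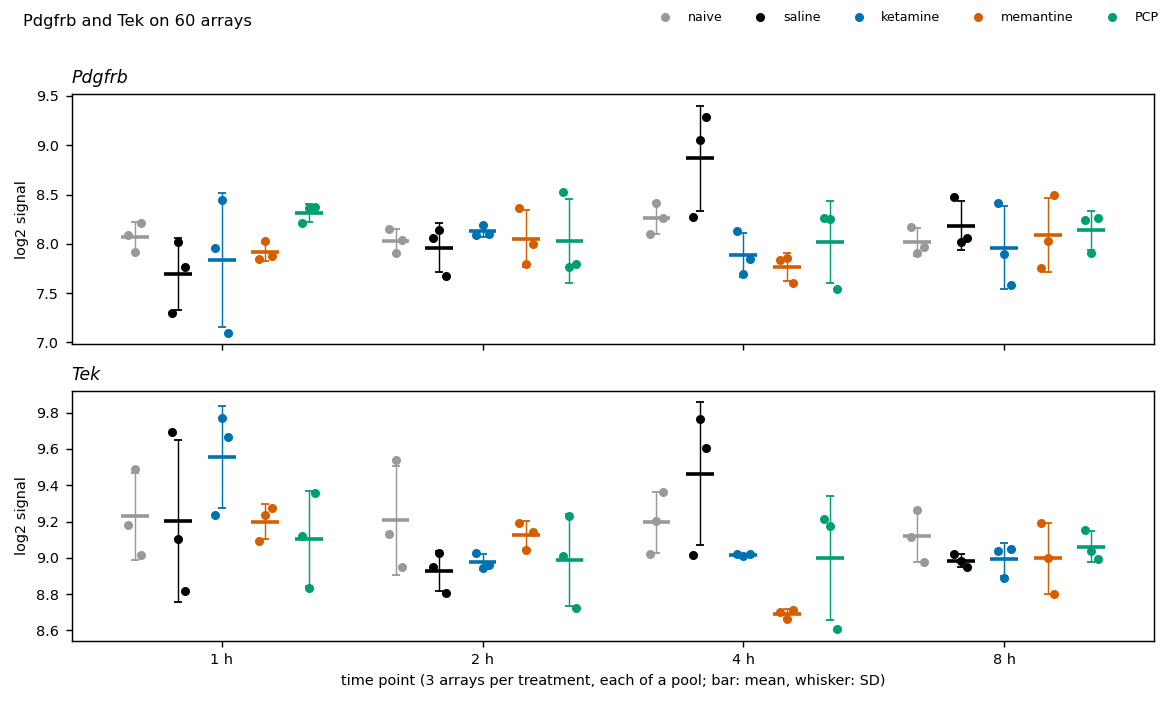
Log2 signal of Pdgfrb (top) and Tek (bottom) on each of the 60 arrays, by time point and treatment; points are arrays, bars are group means and whiskers are SD over 3 arrays. At 4 h, 2 of the 3 saline arrays lie at 9.05 and 9.28 for Pdgfrb and at 9.77 and 9.61 for Tek, above the naive arrays of that time, and the memantine arrays lie at or below 7.86 and 8.71.

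Both calls depended on which controls and which scaling were used. With naive mice as the control the differences at 4 h after memantine were -0.50 for Pdgfrb and -0.50 for Tek (adjusted p = 0.948 for each). With BeadChip as a block they were -1.22 (adjusted p = 0.061) and -0.72 (adjusted p = 0.139). Without the 3 saline arrays that stand apart they were -0.50 and -0.33. That removal left only replicate 2 as saline control of 4 h, which had the lowest Pdgfrb and Tek signal of the saline arrays of 4 h. When arrays were brought to a common median instead of a common distribution, the median of all probes rose by 0.26 in this comparison and 8968 probes passed, 8385 of them higher, where 179 of 316 had been higher. On that scale the difference of Pdgfrb was -0.56 (adjusted p = 0.122) and that of Tek -0.03 (adjusted p = 0.948), which is -0.82 and -0.29 relative to the median of all probes. The vascular probes that passed there, on the scale before that median is taken off, were probe 1 of Flt1 (1.09, adjusted p = 0.011) and probe 1 of Vwf (1.13, adjusted p = 0.020).

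At the other times the difference of Pdgfrb from saline after memantine was 0.22 at 1 h, 0.09 at 2 h and -0.09 at 8 h, and Tek was at -0.01, 0.20 and 0.01. The test of drug by time for memantine gave adjusted p = 0.318 for Pdgfrb and 0.367 for Tek, with 0 of 16 vascular probes called and 2 at an unadjusted p under 0.05 (0.00226% of all probes called). For ketamine and for PCP by time 0 of 16 were called as well, each with 2 at an unadjusted p under 0.05 (0% of all probes called in both). An unadjusted p under 0.05 was found for 7.97%, 5.71% and 6.16% of all probes for memantine, ketamine and PCP by time. Within the saline arrays, Pdgfrb was 7.69 ± 0.36 (SD, n = 3) at 1 h, 7.96 ± 0.25 at 2 h, 8.87 ± 0.53 at 4 h and 8.19 ± 0.25 at 8 h. That test of time gave adjusted p = 0.0779 for Pdgfrb and 0.394 for Tek, so 0 of 16 passed and 2 had an unadjusted p under 0.05, where 0.197% of all probes were called. The share of all probes with an unadjusted p under 0.05 in it was 10.8%. In the naive arrays Pdgfrb was between 8.02 and 8.26 at all 4 times (adjusted p = 1).

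The other 14 probes did not pass at 4 h after memantine. Abcb1a differed by -0.63 (SE 0.28, adjusted p = 0.273), from 6.15, 6.39 and 6.43 after memantine against 7.32, 6.29 and 7.25 in saline, where the groups overlapped. Vwf probe 1 was 0.49 above saline (SE 0.32), and its lowest saline array, replicate 1, was at 7.39, the lowest of all 60. By the brightest probes 3 of the 10 genes were higher and 7 lower, with a median of -0.29 beside 0.01 over all probes tested, and on the common-median scale the median of the 10 was 0.25 beside 0.26. Of 22 other endothelial genes 17 were above 0 (median 0.27), and of 16 other mural genes 8 were (median -0.02).

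**Figure D3:**
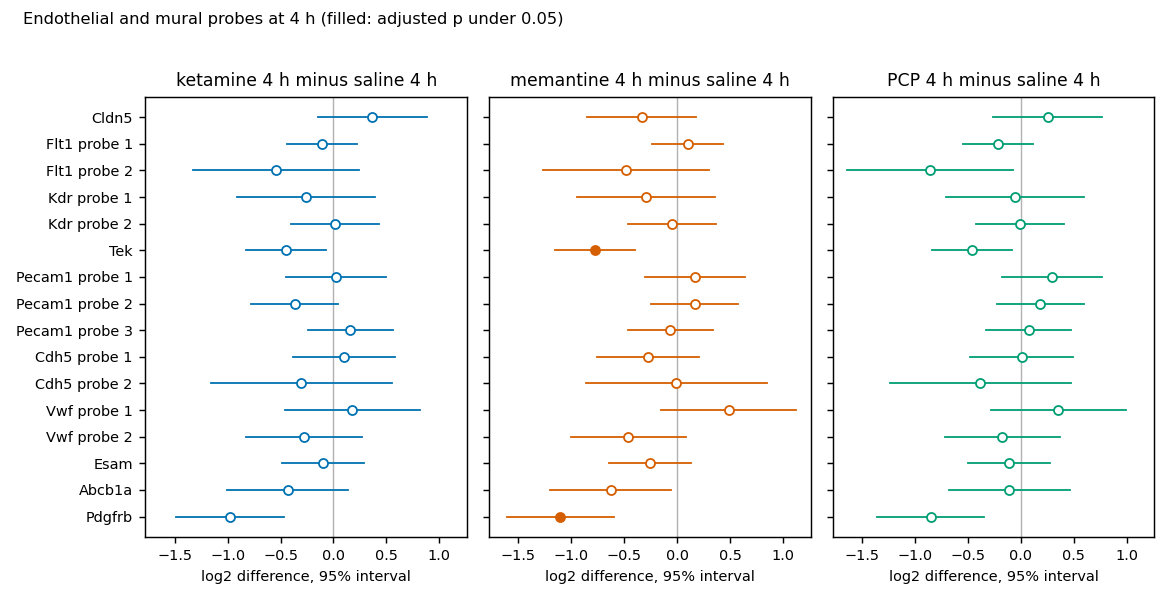
Log2 difference from saline at 4 h with its 95% interval for each vascular probe after ketamine, memantine and PCP; filled circles passed the adjusted threshold. The intervals of Pdgfrb lie below 0 in all 3 panels, with the same saline arrays in each, and most other intervals span 0.

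Cldn5 showed the widest range of group means among the junction genes, from 10.78 ± 0.29 (SD, n = 3) at 2 h after PCP to 11.79 ± 0.29 in naive mice at 2 h. At 2 h its signal was 11.01, 10.94 and 10.85 after memantine and 10.99, 10.89 and 10.45 after PCP, against 11.21, 11.79 and 11.48 in saline and 11.49, 11.80 and 12.07 in naive mice. Every memantine and PCP array of 2 h lay below every saline and naive array of 2 h. How many of all probes separate in this way was not counted. After ketamine the values were 11.26, 10.89 and 11.21, which overlapped with saline. The differences from saline were -0.56 (SE 0.26, unadjusted p = 0.034, adjusted p = 1.00) for memantine, -0.72 (SE 0.26, unadjusted p = 0.00746, adjusted p = 0.879) for PCP and -0.37 for ketamine, and 0 passed. Over all probes, 4.24% had an unadjusted p under 0.05 at 2 h after memantine and 5.12% after PCP. On the common-median scale the differences were -0.43 for memantine, -0.32 for PCP and -0.17 for ketamine. The medians of all probes there were 0.10, 0.19 and 0.14. On BeadChip 8, the PCP and the saline array of 2 h differed by -0.76, and on BeadChip 5, ketamine and saline by -0.21.

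Cldn5 was also followed over time in mice that had not been injected, where no probe passed. In naive mice it was 11.62 ± 0.06 at 1 h, 11.79 ± 0.29 at 2 h, 11.43 ± 0.17 at 4 h and 10.94 ± 0.29 at 8 h (SD, n = 3). The 3 naive arrays of 8 h (11.08, 10.61 and 11.14) lay below all naive arrays of the other times. The share of all probes that do so was not counted. The test of time in naive arrays gave an unadjusted p of 0.0122 and an adjusted p of 1, with 0 of 16 probes called, 1 at an unadjusted p under 0.05, and 0% of all probes called. Among all probes, 2.23% had an unadjusted p under 0.05 in that test. In saline the means were 11.51, 11.49, 11.23 and 11.06, and the arrays of 4 h were at 10.33, 11.65 and 11.71, with replicate 1 lowest of the 60 arrays.

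**Figure D4:**
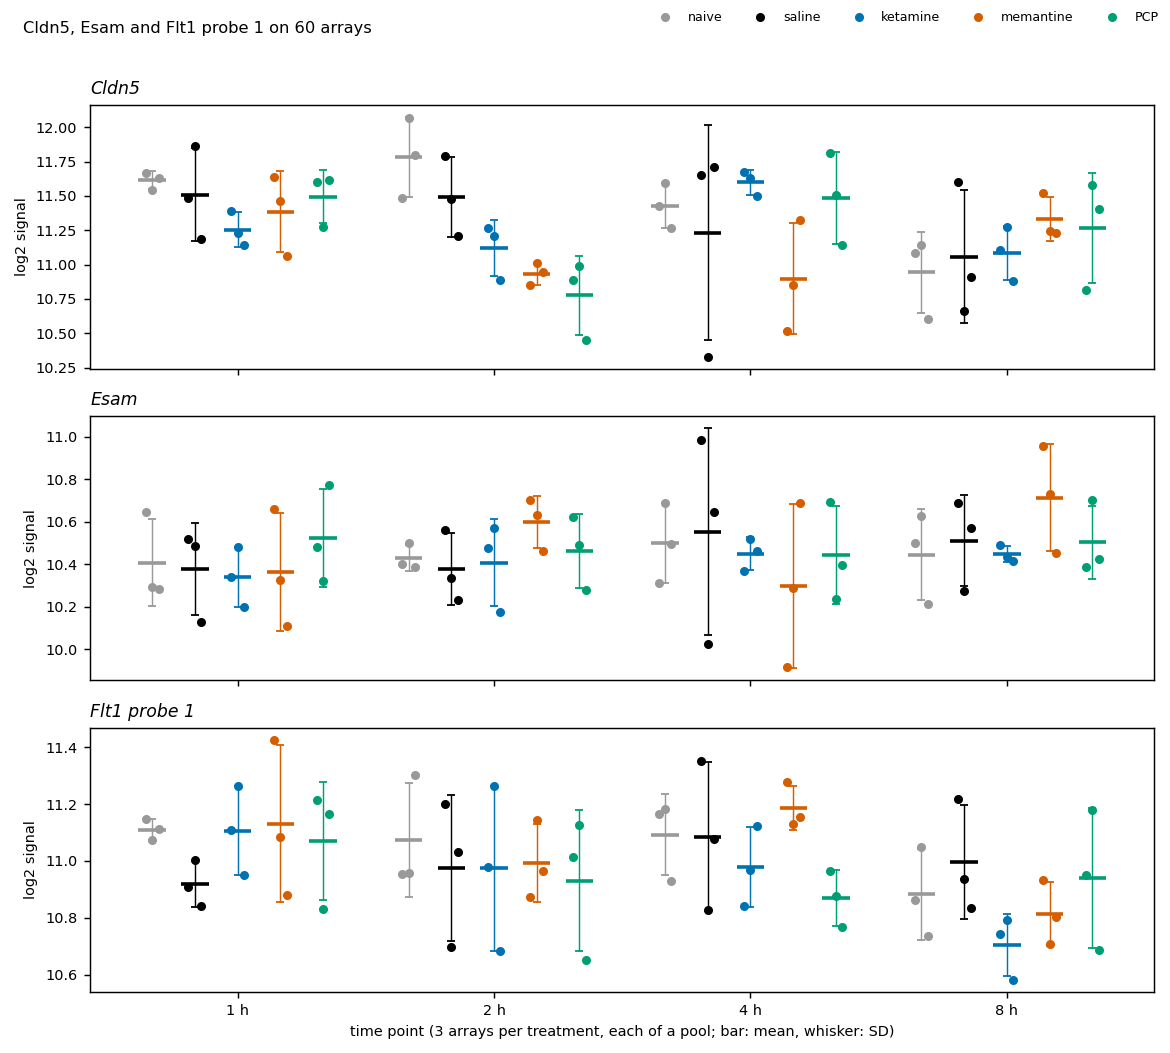
Log2 signal of Cldn5, Esam and probe 1 of Flt1 on the 60 arrays, by time point and treatment; points are arrays, bars are group means and whiskers are SD over 3 arrays. The Cldn5 arrays of 2 h after memantine and PCP lie at or below 11.01, under the saline and naive arrays of that time. Neither difference from saline passed. Group means of Esam run from 10.30 to 10.71 and those of Flt1 probe 1 from 10.71 to 11.19.

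The order of the groups was set against the spread between pools. The pooled SD within groups ran from 0.19 to 0.55 over the 16 probes, beside a median of 0.30 over all probes tested. When the 20 group means of a probe were put in order, neighbours differed by more than that probe's pooled SD at 1 step for Pdgfrb, between saline at 4 h (8.87) and PCP at 1 h (8.32), and at 2 steps for Tek, and at 0 steps for the other 14 probes. Esam means ran from 10.30 to 10.71, those of Flt1 probe 1 from 10.71 to 11.19. Probe 2 of Flt1 was low at 1 h after ketamine (6.80, 6.29 and 6.90 against 7.35, 8.03 and 7.48 in saline), with a difference of -0.96 (SE 0.39, adjusted p = 0.795), where probe 1 of the same gene differed by 0.19. Over all 20 groups together 0 of 16 probes passed and 3 had an unadjusted p under 0.05 (Cldn5, Tek and Pdgfrb), with 0.0904% of all probes called. In that test 5.27% of all probes had an unadjusted p under 0.05.

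Injection itself was measured by saline against naive mice. Averaged over the 4 times, the 16 probes differed by -0.12 to 0.12, with 5 of the 10 genes higher and 5 lower, 0 probes called and 0 at an unadjusted p under 0.05 (0.00226% of all probes called). At the single times 0 of 16 probes passed, with 1 at an unadjusted p under 0.05 at 4 h, Pdgfrb, and 0 at 1, 2 and 8 h. The share of all probes called was 0.244% at 4 h and 0% at 1, 2 and 8 h. An unadjusted p under 0.05 was found for 11.8% of all probes at 4 h. At 1, 2 and 8 h that share was 4.08%, 4.24% and 4.36%, and for the average it was 8.81%.

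The probes were compared with each other over the 60 arrays, as a description, since arrays share BeadChips, groups and a normalization. Cldn5 and Esam, both at endothelial junctions, had the highest r, 0.46, and 0.79 on deviations from the group means. The order of the pairs differed between measures. Among the brightest probes of each gene, Cldn5 and probe 1 of Cdh5 came first by Spearman's rho (0.44, with 0.41 for Cldn5 and Esam). The same pair came first there without the 2 farthest arrays (0.41 and 0.40). Over all vascular probes, probe 2 of Cdh5 and Esam came first by Spearman's rho (0.46). Without the 2 farthest arrays probe 2 of Flt1 and Esam did (0.50). On the common-median scale probe 1 of Flt1 and Esam came first (0.81, with 0.58 for Cldn5 and Esam). Cldn5 also went with probe 1 of Cdh5 (r = 0.45) and probe 1 of Flt1 (0.39), while Pdgfrb went with Abcb1a (0.40) and hardly with Cldn5 (0.04). Over the 45 pairs of genes the median r was 0.11 and 32 were above 0. With BeadChip means also removed, the median was -0.04, 20 pairs were above 0, and Cldn5 and Esam kept r = 0.69. On the common-median scale it was 0.22.

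Different probes of a gene followed each other little. The r was 0.30 for the probes of Flt1, 0.21 for those of Cdh5, -0.04 for those of Kdr and of Vwf, and from -0.18 to 0.04 for the 3 pairs of Pecam1 probes. Cldn5, Tek, Esam, Abcb1a and Pdgfrb have no other probe to set beside theirs.

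**Figure D5:**
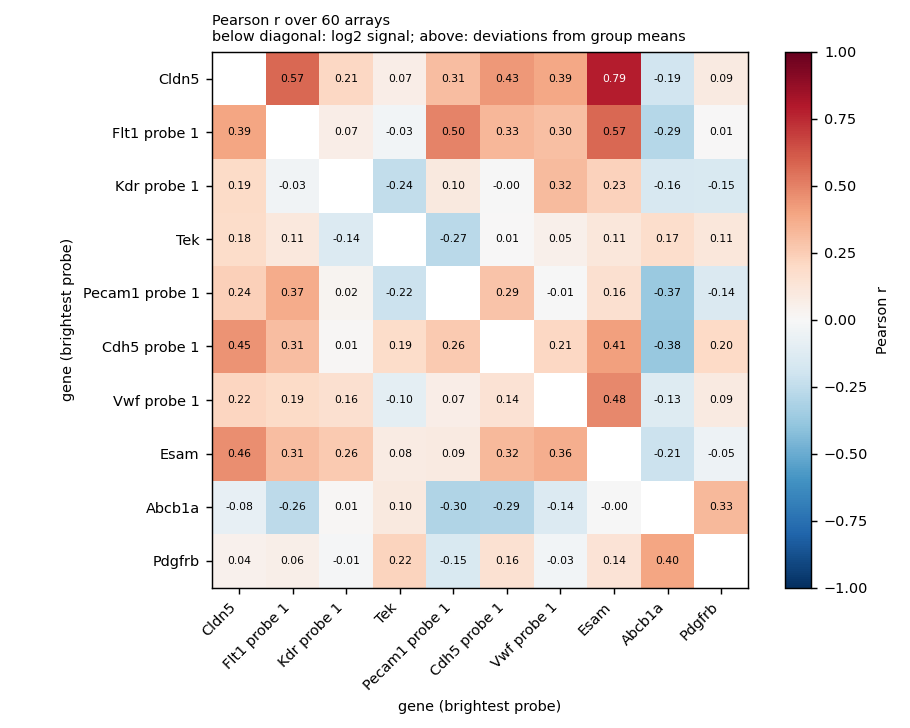
Pearson r between the vascular genes (brightest probe of each) over 60 arrays, from log2 signals below the diagonal and from deviations from group means above it, coloured from blue (below 0) to red (above 0). Cldn5 and Esam reach 0.46 and 0.79, and Abcb1a is above 0 with Pdgfrb (0.40 and 0.33) and below 0 with most endothelial genes.

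Among 18935 genes compared by their brightest probe, the genes closest to the mean pattern of the 10 were Egfl7 (r = 0.72), an angiogenic factor secreted by endothelium, Camk2n1 (0.67), Nomo1 (0.67), Adam15 (0.67), Grasp (0.67), Cxcl12 (0.66), Lmtk2 (0.64), Prkag1 (0.64), Fcrls (0.64) and Acap3 (0.63). Of these 10, Egfl7 alone belongs to the vascular lists. Gene by gene, the closest were Creld1 to Cldn5 (0.74), Ephx1 to Vwf (0.66), Arhgap32 to Esam (0.65), Mmp1a to Kdr (0.61), Dennd1a to Pdgfrb (0.58), Egr3 to Flt1 (0.56), Aacs to Cdh5 (0.55), Csrp3 to Tek (0.55), Ly96 to Pecam1 (0.55) and Gbp5 to Abcb1a (0.46). The mural adhesion molecule Mcam was second closest to Tek (0.52). The median r to the mean pattern was 0.12 over 22 other endothelial genes and 0.15 over 16 other mural genes, but -0.15 over 12 junction genes (2 above 0), -0.06 over 20 genes of VEGF, angiopoietin and PDGF signalling (7 above 0) and -0.02 over 13 of barrier transport (6 above 0), beside 0.04 over all named genes, 0.26 over 8 microglial genes, 0.34 over 5 genes of red cells and -0.14 over 8 astrocyte genes.

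Wider lists of vascular and barrier genes were tested in the same fit, and outside the BeadChip term their genes passed only at 4 h after memantine, where 0.714% of all probes were called. There 2 of 22 other endothelial genes passed, both higher: Ramp2, a partner of the adrenomedullin receptor (1.03, SE 0.20, adjusted p = 0.010), and Rasip1, a regulator of vessel lumen formation (0.82, SE 0.20, adjusted p = 0.039). Of 16 other mural genes 1 passed, lower: Mcam (-0.68, SE 0.17, adjusted p = 0.042). Of 20 genes of VEGF, angiopoietin and PDGF signalling 1 passed, higher: Ptprb, the endothelial phosphatase that acts on the Tek receptor (1.15, SE 0.26, adjusted p = 0.024). Of 13 genes of barrier transport 1 passed, higher: Slc2a1, the glucose carrier of brain endothelium (1.15, SE 0.20, adjusted p = 0.0022). The authors had already named Slc2a1 among their drug-responsive genes, from data that include these arrays. Its pass is therefore not an independent result, and the lists were chosen with earlier results of these data known. Of 12 junction genes 0 passed. The medians were 0.13 for the signalling list (12 of 20 above 0), 0.11 for the junction genes (9 of 12) and -0.01 for barrier transport (6 of 13).

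Slc2a1 was 12.46, 12.67 and 12.73 after memantine at 4 h, 11.08, 11.78 and 11.54 in saline and 11.88, 11.53 and 11.74 in naive mice. Its memantine arrays lay above both controls, and the share of all probes that separate in this way was not counted. Ptprb was 10.17, 10.63 and 10.75 after memantine and 9.72, 9.02 and 9.35 in saline, with naive mice at 10.41, 9.68 and 9.90. With naive mice as the control none of these 5 genes passed (Slc2a1 0.90, adjusted p = 0.201), and Ramp2, Ptprb, Rasip1 and Mcam were at 0.56, 0.52, 0.29 and -0.53. With BeadChip as a block Slc2a1 alone passed (1.20, adjusted p = 0.019), while Ptprb was at 1.05 (adjusted p = 0.053), Ramp2 at 0.98 (0.073), Rasip1 at 0.77 (0.077) and Mcam at -0.83 (0.067). On the common-median scale the median of all probes was 0.26, and 8385 probes passed as higher. There Slc2a1 was at 2.12, Ptprb at 1.99, Ramp2 at 1.94 and Rasip1 at 1.21, all passing and all holding that shift. Mcam was at 0.05 (adjusted p = 0.929), which is below the median of all probes. Removing the 3 saline arrays that stand apart left only saline replicate 2 at 4 h, so no test result is given for it. That array had the lowest Ptprb signal (9.02) and the highest Slc2a1 signal (11.78) of the 3 saline arrays of 4 h. Against it the Ptprb difference was larger than in the fit with all arrays. Those of Slc2a1 (0.84), Ramp2 (0.45), Rasip1 (0.32) and Mcam (-0.60) were smaller in size.

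Markers of other cells were set beside these values. At 4 h after memantine 1 of 8 astrocyte genes passed, higher (Gjb6, 0.87, SE 0.19, adjusted p = 0.024), and 0 of 8 microglial, 0 of 7 oligodendrocyte, 0 of 9 choroid plexus, 0 of 8 meningeal, 0 of 5 red cell and 0 of 8 striatal neuron genes did. Gjb6, too, had been named by the authors among the regulated genes of these data. The summed choroid plexus level, as a mean deviation over 9 genes, was -0.60 to -0.12 on the memantine arrays of 4 h, -0.63 to -0.51 in saline and -0.01 to 1.17 in naive mice, and the choroid plexus gene Clic6 was lower in saline than in naive mice at 4 h with a difference of -1.07 (SE 0.20, adjusted p = 0.016). The astrocyte level was 0.16 to 0.27 after memantine, -0.12 to 0.26 in saline and 0.02 to 0.09 in naive mice. Its memantine arrays lay above every naive array, and the saline array that overlapped with them was replicate 1 (0.26). The red cell level was -0.53 to 0.06 after memantine, -0.72 to -0.18 in saline and -0.38 to -0.16 in naive mice. The oligodendrocyte level over 7 genes was -0.04 to 0.08 after memantine, 0.11 to 0.35 in saline and -0.08 to -0.02 in naive mice. Memantine and saline arrays did not overlap in it, while the median difference of the 7 genes was -0.08. How many of the lists or of all probes separate in this way was not counted. The part of these cells in the Pdgfrb and Tek values was not tested.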

How the data were processed

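Striatal RNA of 60 pools was measured by the authors on Illumina MouseWG-6 arrays. The deposited intensity table holds linear probe signals exported without normalization and without detection p-values or control probes. A further deposited table, with log2 values background-subtracted and quantile-normalized by the authors, served as an alternative. Groups, replicate numbers and BeadChips came from the labels. In R 4.3.3, limma 3.58.1 applied the normexp correction (offset 50) and quantile normalization, and log2 was taken. Quantile normalization gives all arrays the same distribution. Of 45281 probes, 44236 were kept, with a signal over the 25th percentile of 3 arrays or more. Probes were named from the platform table (34885 with 1 symbol, 18 with several, 10378 with none). A model of 20 group means over 60 arrays (40 residual degrees of freedom) was fitted with lmFit and eBayes, and Benjamini-Hochberg adjustment over the 44236 probes used a threshold of 0.05. The number of arrays limits the precision. All 16 member probes were described, and the probe with the highest mean stood for a gene. In other lists, genes that passed were named, at most 4 per list with the smallest p. The genes most like the members were the 3 highest per gene and 10 for the mean. Per gene the first is given, and for Tek all 3. The members and lists were chosen with earlier results of these data known. The fit was tested on simulated data. Alternatives were another scaling, background correction, filter, control, block or variance model, and leaving out arrays.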

Additional observations from a re-analysis of the deposited data

How the results depend on the processing

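The count of vascular probes called at 4 h after memantine was 2 in the fit described and also with the authors' log2 values, no background correction, no filter, the filter on all 60 arrays, a trended variance and the replicate block (2). It was 2 with median scaling too, but of those 0 were shared with the fit described. It was 0 with BeadChip as a block, with naive arrays as the control, with only the arrays of the groups compared, and, chosen after seeing the data, with saline and naive pooled as the control (0). Leaving out the 3 saline arrays least like the rest was also chosen after seeing the data. It left only saline replicate 2 at 4 h, so no count is given for it. The cause was not tested. Leaving out 1 array gave between 0 and 2 calls there, and between 0 and 1 for ketamine at 4 h, PCP at 4 h and time in saline arrays. Without saline 4 h replicate 2, the saline array with the lowest Pdgfrb signal, the adjusted p fell to 0.0026 for Pdgfrb and 0.0041 for Tek at 4 h after memantine, and the ketamine and PCP differences of Pdgfrb passed (adjusted p = 0.0095 and 0.014), whereas both were smaller with naive arrays or without the 3 saline arrays. Without saline 4 h replicate 3 neither memantine call passed (0.135 and 0.125), without saline 4 h replicate 1 Tek did not (0.077), without memantine 4 h replicate 1 Pdgfrb did not (0.051), and without memantine replicate 2 or 3 neither did (0.069 and 0.113, 0.077 and 0.105). For time in saline arrays the count of 0 became 1 with the authors' log2 values, no background correction, the filter on all 60 arrays and array position as a block. Neither the Pdgfrb nor the Tek difference at 4 h after memantine changed its sign, and the counts of vascular probes for the comparisons not named here stayed at 0 under every alternative that could be fitted. The count over all probes at 4 h after memantine, 316, was 661 with the authors' log2 values, 622 with no background correction, 868 with the filter on all 60 arrays, 502 with a trended variance, 61 with BeadChip as a block, 17 with the pooled control, 3 with only the groups compared, 2 with naive arrays and 8968 with median scaling. Array position could not be fitted as a block for ketamine or memantine against saline. Replicate numbers did not pair arrays: of 48 drug and saline or naive and saline pairs, 6 had deviations correlated above 0.1 (median -0.03), and the replicate block moved no count of vascular probes called. Over all probes it gave 325 at 4 h after memantine, 24 in place of 30 at 4 h after ketamine, and 0 in place of 8 for the ketamine average. Without control probes the signal over background is not known, which limits Kdr probe 2, Pecam1 probe 3, Vwf probe 2 and Abcb1a most.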
